A study of Mus musculus with 18 samples.

Results

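The transcriptional response of parental 4T1 cells to 17-DMAG was described from 6 libraries of the 18 in the series. They are 3 from untreated and 3 from treated cells, identified by their titles. The choice of this comparison and of the gene lists was made with earlier results of these data known. 4T1 is a mammary carcinoma line of BALB/cfC3H mice, labelled wild type and breast carcinoma-derived, and 17-DMAG is a benzoquinone ansamycin that occupies the ATP pocket of the chaperone HSP90. The treated cells received 1.5 µM 17-DMAG, and the untreated cells received no drug. The sample records give 48 h of exposure and the text on the series gives 2 h, so the time behind every value below is not settled by the sources. The other 12 libraries come from 4T1R1 and 4T1R2, populations selected from 4T1 by repeated exposure to 17-DMAG. They served here as a comparison and in the estimate of the spread between libraries. All of the cells derive from 1 line, so the values describe that line and carry no information on other tumors.

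HSP90 folds and stabilizes a large set of signaling proteins, among them receptor tyrosine kinases, steroid receptors and the aryl hydrocarbon receptor, with the help of co-chaperones. When HSP90 is occupied by an inhibitor, heat shock factor HSF1 is released and raises transcription of chaperone genes, while client proteins can be sent to the proteasome. Proteotoxic and metabolic stress can also start the integrated stress response, in which phosphorylation of the initiation factor eIF2α favors translation of ATF4, a transcription factor for genes of amino acid synthesis, transport and tRNA charging. Immediate-early genes such as those of the FOS, JUN and EGR families respond within minutes to signaling through MAP kinases and have short-lived transcripts.

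Library totals were 28967737 to 31677553 counts untreated (median 29996238) and 28493864 to 55094630 treated (median 31005195). The ribosomal RNA precursor Rn45s took 10.7 to 11.4% of counts in untreated and 13.2 to 14.1% in treated libraries, and without it 2469 genes rose and 2436 fell in 4T1 against the 2490 and 2423 given below. Replicates 1 and 2 of the treated cells were closer to each other than any other pair within a condition. Their chi-square per gene was 1.1, against 2.04 to 2.22 for the 17 remaining within-condition pairs. They were averaged and counted as 1 sample. The groups are therefore n = 3 untreated and n = 2 treated. The study calls the replicates biological while the labels name no separate cultures, so that P-values measure the spread between libraries. That spread was estimated over all 17 libraries of the 6 groups, 4T1R1 and 4T1R2 included. Expression is given as normalized counts, which are the counts after division by TMM-scaled library sizes, and change as log2FC ± SE from a fit of all 17 libraries. The SE was derived from the test, as the size of the log2FC divided by the square root of the F statistic. A gene was called at an adjusted P-value under 0.05 in edgeR's quasi-likelihood test, and "rose" and "fell" are used only of called genes. Epithelial markers were abundant, with summed levels of 77930 to 79080 normalized counts untreated and 77020 to 77370 treated for the 10 genes listed. Of 9 fibroblast markers Dcn and Lum had no count, and the sum of 690 to 771 untreated and 402 to 423 treated was nearly all Pdgfra. Of 10 leukocyte markers 5 had no count, among them Cd3e, Adgre1, Lyz2 and Ncr1, and the sums were 388 to 449 and 343 to 390. The 7 endothelial markers summed to 17.1 to 45.6 and 13.0 to 23.7, with Kdr and Emcn at 0.

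In 4T1 cells 17-DMAG moved many genes by small amounts and far fewer by more than 2-fold. Of 13507 genes tested, 2490 rose (18.4%) and 2423 fell (17.9%), and at a change of at least 2-fold 197 rose (1.46%) and 171 fell (1.27%). The median size of the change in called genes was 0.30 on the log2 scale, and 75.4% of them changed by less than 0.5. The balance of the directions depended on scaling: with total counts in place of TMM factors the median of all genes shifted by −0.114 on the log2 scale, and 1193 genes rose against 4322 that fell, 160 and 256 of them at least 2-fold. Changes are therefore read relative to the median of all genes, and where a list's median changed sign under that scaling both values are given. Where it moved the share of rises among a list's called genes by over 10 percentage points, the counts under it follow as "rescaled", higher before lower. The shares of 17.9 to 18.4% called in either direction are the background against which the gene lists below are read. Genes of the integrated stress response, chaperones and the proteasome had shares above that background on the rising side, and genes of DNA replication, histones and MAP kinase feedback on the falling side.

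**Figure D1:**
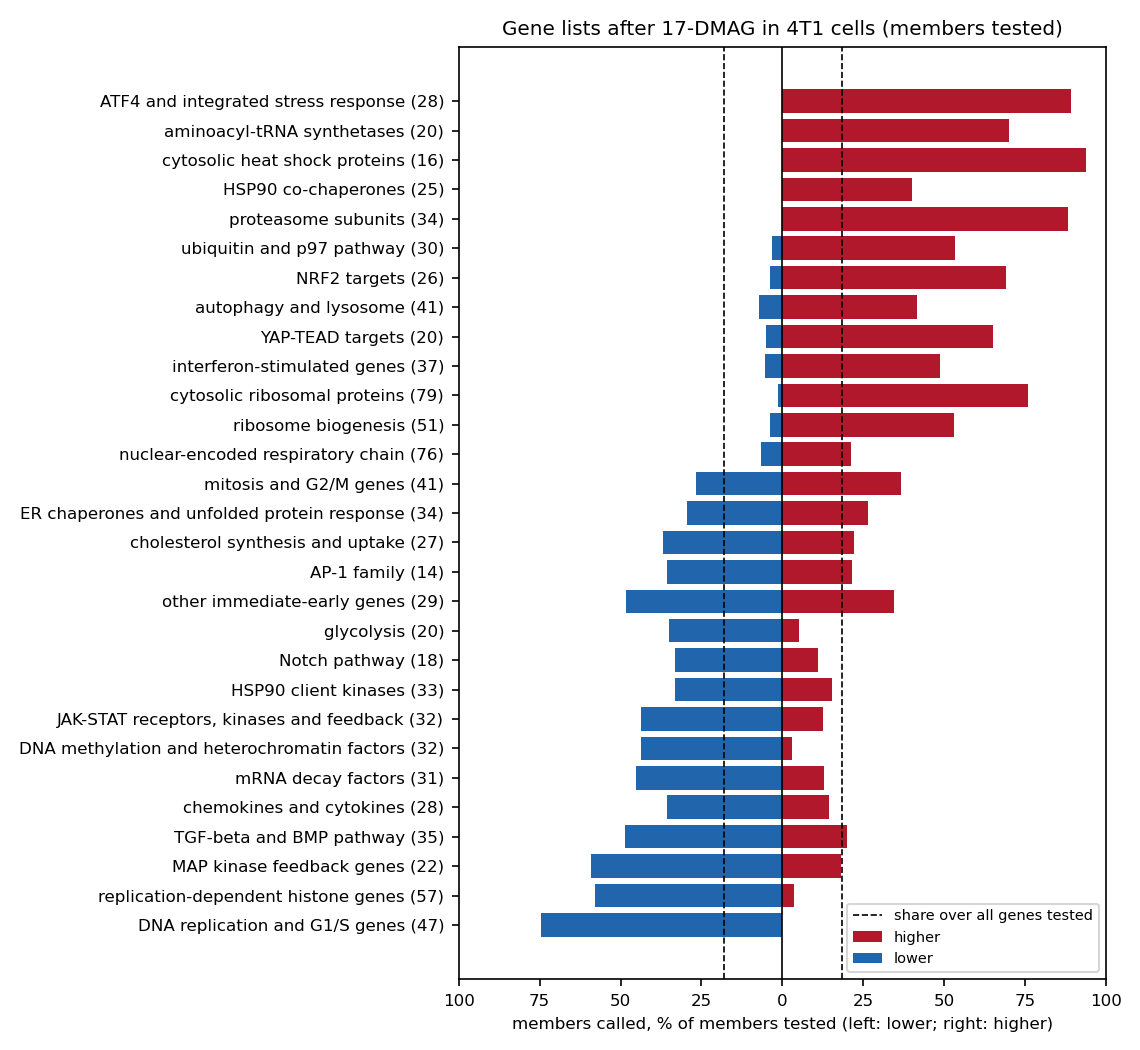
Share of the tested members of each gene list called higher (red, to the right) and lower (blue, to the left) after 17-DMAG in 4T1 cells, in % of the members tested, whose number stands after each name. The dashed lines mark the shares over all genes tested, 18.4% higher and 17.9% lower; bars of the ATF4, heat shock and proteasome lists reach furthest right and that of DNA replication furthest left.

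Genes of the ATF4 program rose as a block. Of the 28 tested members of the list of ATF4 and integrated stress response genes 25 rose, 16 of them at least 2-fold, and the other 3, Cbs, Ddit4 and Ppp1r15a, did not pass the test. The list's median log2FC was 1.10, against 0.00 over all genes tested. Trib3 (chr2:152337422-152344032, minus strand, GRCm38), a pseudokinase that restrains AKT and ATF4 itself, had 204, 243 and 235 normalized counts untreated and 1480 and 1501 treated (log2FC 2.71 ± 0.084, adjusted P-value 2.57e-27). Chac1 (chr2:119351229-119354381, plus strand), which degrades glutathione, had 205, 197 and 177 untreated and 1018 and 1062 treated (log2FC 2.43 ± 0.085, adjusted P-value 1.92e-25). Slc7a11, the light chain of the cystine-glutamate exchanger, had 587, 541 and 476 untreated and 2663 and 2716 treated (log2FC 2.33 ± 0.059). In each of these genes both treated values lay several times above every untreated one. Atf4 itself had 4836, 4827 and 4892 untreated and 10300 and 10520 treated (log2FC 1.10 ± 0.033). Atf5, a related factor whose locus overlaps Il4i1 and Nup62 on the opposite strand, had 858, 759 and 739 untreated and 3706 and 3771 treated (log2FC 2.25 ± 0.059). Ddit3, which encodes the stress factor CHOP, was scarce, with 116, 80.1 and 114 untreated and 188 and 209 treated (log2FC 0.93 ± 0.15). The genes just named thus ranged from 80.1 to 10520 normalized counts. Their groups did not overlap, which was a condition for naming most of them and held for 4855 called genes in all.

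**Figure D2:**
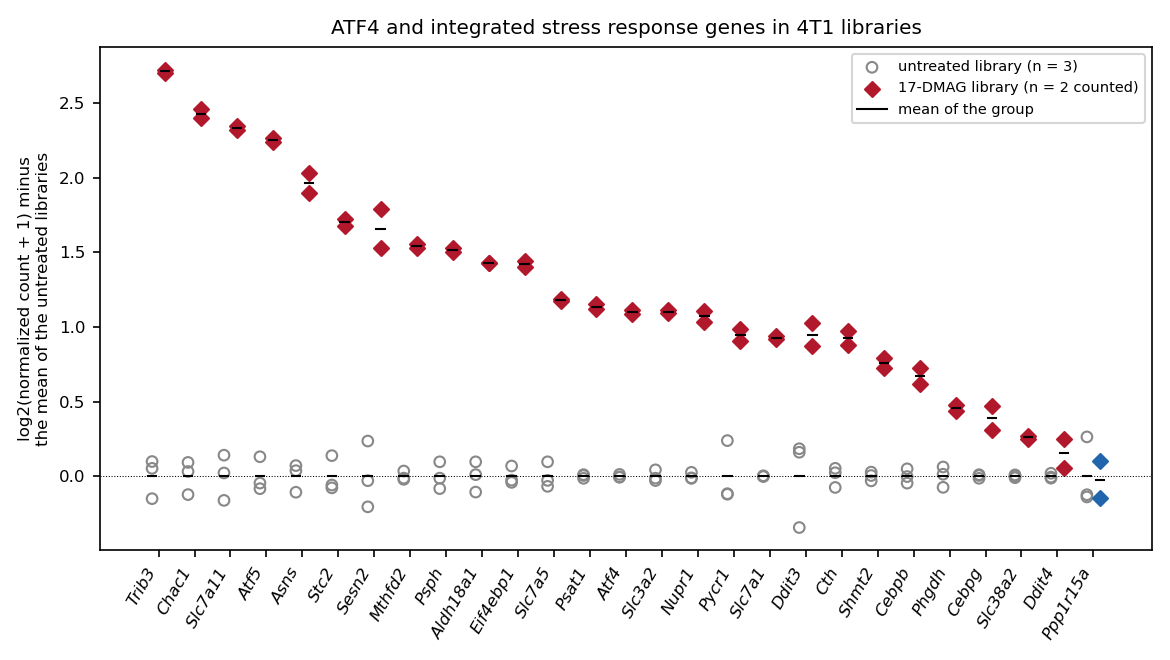
Tested members of the ATF4 and integrated stress response list averaging 10 or more normalized counts in either group (Cbs is left out by this rule), in order of log2FC; the vertical axis is log2(normalized count + 1) minus the mean of the untreated libraries. Open circles are the 3 untreated libraries, filled diamonds the 2 treated ones counted (red where the fitted log2FC is above 0, blue where below), and short bars the group means; from Trib3 at 2.71 the treated points fall to near 0 at Ddit4 and Ppp1r15a.

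Enzymes that make amino acids and the serine-derived one-carbon units moved with the program; these were chosen for naming after their values were seen. Asns, asparagine synthetase, had 2192, 2481 and 2423 normalized counts untreated and 8799 and 9643 treated (log2FC 1.96 ± 0.042). Along the serine pathway the first enzyme, Phgdh, rose by less (log2FC 0.46) than Psat1 (1.13) and the last, Psph (1.52). The mitochondrial folate enzymes Shmt2 and Mthfd2 rose with log2FC of 0.76 and 1.54, and the proline enzymes Aldh18a1 and Pycr1 with 1.43 and 0.94. By the rule for named genes, Gpt2, the mitochondrial alanine aminotransferase, had 697, 567 and 609 normalized counts untreated and 3041 and 3292 treated (log2FC 2.34 ± 0.065). Amino acid carriers rose as well. Slc6a9, a glycine carrier, had 417, 372 and 426 untreated and 1269 and 1417 treated (log2FC 1.72 ± 0.084), and Slc1a4, a carrier of neutral amino acids, had 931, 860 and 864 untreated and 2388 and 2503 treated (log2FC 1.47 ± 0.059). Over all 206 solute carriers tested 46 rose and 45 fell, so the carrier genes as a class were near balance (median 0.01, or −0.099 under total-count scaling and −0.0108 without treated replicate 2, rescaled 35 and 66).

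Aminoacyl-tRNA synthetases, which charge tRNAs with their amino acids, split in 2 groups. Of the 20 cytosolic enzymes tested 14 rose, 5 of them at least 2-fold, and the other 6, Vars, Farsa, Dars, Kars, Hars and Qars, did not pass the test, with log2FC between −0.08 and 0.08. Aars, the alanine enzyme, had 7716, 8077 and 7589 normalized counts untreated and 19630 and 20550 treated (log2FC 1.37 ± 0.031). Sars, Nars and Cars, for serine, asparagine and cysteine, rose with log2FC of 1.19, 1.19 and 1.16. The list's median was 0.60 (rescaled 13 and 2). Translation factors changed less: of 56 tested 23 rose and 3 fell, with a median of 0.065 that became −0.051 under total-count scaling (rescaled 7 and 18). Among them Eif4ebp1, the repressor of cap-dependent initiation and itself an ATF4 target, had 1965, 1840 and 1821 untreated and 4962 and 5101 treated (log2FC 1.42 ± 0.048), and Eif2s2, the β subunit of eIF2, rose with log2FC of 0.59.

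Sequence upstream of the start sites was searched because so many of these genes rose together. Promoter windows from RefSeq (GRCm38.p6, 250 bases before to 50 after the start) were held for 10095 of the genes tested, and both strands were read. The letters TGATGNAA, the core of the composite C/EBP-ATF element that ATF4 can bind, were added to the search after the values were seen. They stood in 2.80% of all genes with a window, in 15% of those that rose at least 2-fold (22 of 147), in 2.48% of those that fell at least 2-fold (3 of 121), and in 29.7% of the genes of the ATF4 and synthetase lists (11 of 37). A match is a description of letters and not of binding. The following 100-base stretches, 5′ to 3′ on the strand of the gene, show 3 such matches, with the element in capitals.
Chac1, chr2:119351003-119351102 (plus): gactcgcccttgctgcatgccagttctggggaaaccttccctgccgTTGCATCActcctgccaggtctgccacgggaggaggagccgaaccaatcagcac
Slc7a11, chr3:50443614-50443713 (minus): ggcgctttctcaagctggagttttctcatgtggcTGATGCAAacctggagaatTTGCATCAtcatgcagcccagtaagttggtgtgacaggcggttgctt
Aars, chr8:111033684-111033783 (plus): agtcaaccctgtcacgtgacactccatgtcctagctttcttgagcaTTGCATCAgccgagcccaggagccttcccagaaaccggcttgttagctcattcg
The window of Slc7a11 held the element on both strands, while those of Chac1 and Aars held it once.

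The unfolded protein response of the endoplasmic reticulum did not move in 1 direction. Of 34 genes tested 9 rose and 10 fell, with a median log2FC of −0.03 (rescaled 5 and 17). Xbp1, the factor spliced by the sensor IRE1, had 1223, 1175 and 1157 normalized counts untreated and 623 and 656 treated (log2FC −0.89 ± 0.069), and its target Dnajb9 had 374, 317 and 311 untreated and 188 and 227 treated (log2FC −0.70 ± 0.11). Herpud1, which serves the disposal of misfolded proteins, rose from 749, 716 and 650 to 1162 and 1190 (log2FC 0.74 ± 0.061). Hspa5, the chief chaperone of this compartment, changed little, from 45570, 45030 and 45930 to 51250 and 55510 (log2FC 0.23 ± 0.032). Rises of ATF4 genes were therefore seen beside falls of Xbp1 and Dnajb9 in the same libraries.

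Among chaperones outside the reticulum the cytosolic members rose most. Of 16 cytosolic heat shock proteins tested 15 rose, 12 of them at least 2-fold, and Dnajb6 did not pass the test (median log2FC 1.6); Hspa1a and Hspa1b are near-identical copies whose reads the counting could split. Hspa8, the constitutive HSC70, reached 305400 and 314000 normalized counts from 62080, 61050 and 63060 (log2FC 2.32 ± 0.026), with snoRNA genes inside its introns. Dnajb1 and Dnaja1, partners of HSP70 that deliver clients, rose with log2FC of 2.19 and 2.03, the latter with a neighbour, Smu1, overlapping it. Co-chaperones of HSP90 were split: 10 of 25 rose, and the other 15 did not pass the test, with log2FC between −0.23 and 0.13 (median 0.079, or −0.038 under total-count scaling, rescaled 10 and 4). Activators and adaptors led, with Ahsa1, which stimulates the ATPase of HSP90, going from 4061, 4296 and 4062 to 11090 and 11250 (log2FC 1.43 ± 0.033) and Chordc1 from 3917, 3492 and 3583 to 12100 and 12160 (log2FC 1.73 ± 0.044). Ahsa2, which overlaps Usp34 on the opposite strand, rose with log2FC of 2.12, and Stip1, the adaptor between HSP70 and HSP90, with 1.07. Fkbp5, a co-chaperone of steroid receptors, had 3172, 3273 and 3007 untreated and 3242 and 3097 treated, and its groups overlapped.

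The folding machines with rings moved in different ways. All 8 subunits of the cytosolic chaperonin that were tested rose, from Tcp1 (log2FC 0.19 ± 0.030, or 0.076 and not called under total-count scaling) to Cct7 (10070, 10480 and 10180 untreated, 15350 and 15910 treated, log2FC 0.61 ± 0.029). The 6 subunits of prefoldin, which hands substrates to it, did not pass the test and lay between −0.07 and 0.04 (both complexes together rescaled 7 and 1). In mitochondria Hspe1 and Hspd1, the 2 parts of the matrix chaperonin, rose with log2FC of 1.27 ± 0.036 and 1.11 ± 0.029, and Hspa9 with 0.41 ± 0.027, while over the 19 mitochondrial chaperones and proteases 9 rose and 2, Grpel2 and Clpx, fell (median 0.12, or 0.00 under total-count scaling, rescaled 3 and 4). Hspe1 and Hspd1 lie head to head, and their promoter windows share the heat shock element shown here in capitals, 3 or more GAA and TTC blocks in turn, each 2 bases apart. This element was found in 0.614% of all windows and in 4.08% of those of genes that rose at least 2-fold (6 of 147). It stood in 2 of 13 windows of the cytosolic heat shock proteins, so most of those lacked it.
Hspe1, chr1:55088048-55088147 (plus): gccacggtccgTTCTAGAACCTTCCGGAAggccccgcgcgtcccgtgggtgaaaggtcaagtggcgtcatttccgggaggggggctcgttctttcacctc
Hspd1, chr1:55088016-55088115 (minus): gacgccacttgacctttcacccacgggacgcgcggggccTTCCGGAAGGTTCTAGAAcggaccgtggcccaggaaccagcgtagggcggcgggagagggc

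Genes of protein disposal rose with small and even changes. Of 34 proteasome subunits 30 rose, and Psmd10, Psmd9, Psmd13 and Psmb5 did not pass the test (median log2FC 0.27, range −0.01 to 0.44, or a median of 0.15 under total-count scaling with 20 called higher). Psmd11, a subunit of the regulatory particle, had 5784, 5691 and 5811 normalized counts untreated and 7660 and 7944 treated (log2FC 0.44 ± 0.034), and Psma1, of the core, had 3204, 3301 and 3420 untreated and 4243 and 4532 treated (log2FC 0.41 ± 0.048). The rise was under 1.5-fold in both genes, whose groups did not overlap. Absence of overlap held for 4855 called genes in all, so it does not set these apart. Of 30 genes of ubiquitin and the segregase p97 16 rose and Ube2d1 fell (median 0.11, or −0.0034 under total-count scaling, rescaled 9 and 6). The widest change was in Zfand2a, an arsenite-inducible adaptor of the proteasome, with 1341, 1349 and 1515 untreated and 5109 and 5404 treated (log2FC 1.90 ± 0.051). The polyubiquitin gene Ubb rose with log2FC of 0.33 ± 0.089. The window of Zfand2a held a cyclic AMP response element, TGACGTCA, shown in capitals because the same letters recur below in genes that fell.
Zfand2a, chr5:139484563-139484662 (minus): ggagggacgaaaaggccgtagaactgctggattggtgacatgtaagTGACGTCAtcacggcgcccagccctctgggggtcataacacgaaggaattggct

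Autophagy genes rose in part. Of 41 genes of autophagy and the lysosome 17 rose and 3 fell (median 0.078, or −0.038 under total-count scaling, rescaled 8 and 5). Gabarapl1, which coats the autophagosome membrane, had 506, 525 and 534 normalized counts untreated and 1468 and 1561 treated (log2FC 1.54 ± 0.069). Sqstm1, the cargo receptor p62, had 6081, 6282 and 6220 untreated and 10780 and 11520 treated (log2FC 0.85 ± 0.034). Tfeb, the factor that drives lysosomal genes, fell, from 189, 174 and 209 to 95.4 and 98.3 (log2FC −0.98 ± 0.16). Of the 17 subunits of the V-ATPase, which acidifies lysosomes, 4 rose and the other 13 did not pass the test (median 0.065, or −0.050 under total-count scaling, rescaled 1 and 1), led by Atp6v1h (log2FC 0.42 ± 0.052).

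Genes of the antioxidant factor NRF2 rose, 18 of 26 with 1 that fell, Gsta4 (median 0.23, rescaled 13 and 3). The largest rise of the list, with log2FC of 2.33, was that of Slc7a11, which is also in the ATF4 list above. Hmox1, heme oxygenase, had 364, 401 and 400 normalized counts untreated and 913 and 962 treated (log2FC 1.27 ± 0.083), and Osgin1 had 450, 564 and 530 untreated and 1001 and 1026 treated (log2FC 0.98 ± 0.077). Nqo1, the quinone reductase that is a standard NRF2 target and reduces the quinone of 17-DMAG, had 279, 258 and 284 untreated and 264 and 309 treated, so its groups overlapped (log2FC 0.06 ± 0.11, adjusted P-value 0.73). Among 12 genes of the response to metals 6 rose and 5 fell (median 0.092, or −0.024 under total-count scaling, rescaled 3 and 5). The risers included the zinc exporter Slc30a1 (793, 818 and 785 untreated, 1300 and 1344 treated, log2FC 0.73 ± 0.077) and the metallothioneins Mt2 and Mt1 (0.68 ± 0.075 and 0.57 ± 0.087).

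Ribosomal protein genes rose together by little. Of 79 cytosolic ones tested 60 rose and 1 fell, with a median log2FC of 0.14, but under total-count scaling the median was 0.025 with 7 higher and 7 lower, so the count depended on the scaling. Rpl13a, with 16990, 17880 and 17850 normalized counts untreated and 20800 and 20670 treated, changed by 0.24 ± 0.032, and many of these genes have processed copies whose reads the counting could split. Ribosome biogenesis factors behaved alike, with 27 of 51 higher and Ubtf and Nop10 lower (median 0.11, or −0.011 under total-count scaling, rescaled 9 and 9). Their risers included Rrp1b (log2FC 0.40 ± 0.040) and Dkc1, the pseudouridine synthase of rRNA (0.35 ± 0.034). In the mitochondrial ribosome 20 of 74 subunits rose and 7 fell (median 0.090, or −0.026 under total-count scaling, rescaled 5 and 15), and in the nuclear-encoded respiratory chain 16 of 76 rose and 5 fell (median 0.055, or −0.061, rescaled 1 and 11), with Uqcrq at 0.36 ± 0.053 and Uqcrh at −0.45 ± 0.052.

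Cell cycle genes moved in 2 ways. Of 47 genes of DNA replication and the G1/S step 35 fell and the other 12 did not pass the test, with a median log2FC of −0.24, whereas of 41 genes of mitosis and G2/M 15 rose and 11 fell (median 0.047, or −0.069 under total-count scaling, rescaled 6 and 17). Cdc6, which loads the MCM helicase onto origins, had 2384, 2322 and 2584 normalized counts untreated and 1481 and 1473 treated (log2FC −0.72 ± 0.054). Rrm2, the small subunit of ribonucleotide reductase, had 10500, 10860 and 10760 untreated and 6675 and 6379 treated (log2FC −0.71 ± 0.037). Ccne1, cyclin E, fell from 658, 766 and 662 to 440 and 468 (log2FC −0.62 ± 0.084). Abundant replication genes fell by less, Pcna with log2FC of −0.24 ± 0.040 and Mcm2 with −0.12 ± 0.038, the latter not called without untreated replicate 2 (−0.101) or treated replicate 3 (−0.107). On the other side Cenpf, a kinetochore protein, had 13990, 13120 and 13510 untreated and 21270 and 21720 treated (log2FC 0.67 ± 0.031). Cdc25b, the phosphatase that activates CDK1, and Ccnb1, cyclin B, rose with 0.41 ± 0.042 and 0.35 ± 0.039. Plk1, the polo kinase, had 4626, 4759 and 4787 untreated and 4489 and 4658 treated, and its groups overlapped (log2FC −0.05 ± 0.044, or −0.16 and called under total-count scaling). Whether the share of cells in each phase or the RNA per cell moved cannot be told apart in bulk libraries.

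**Figure D3:**
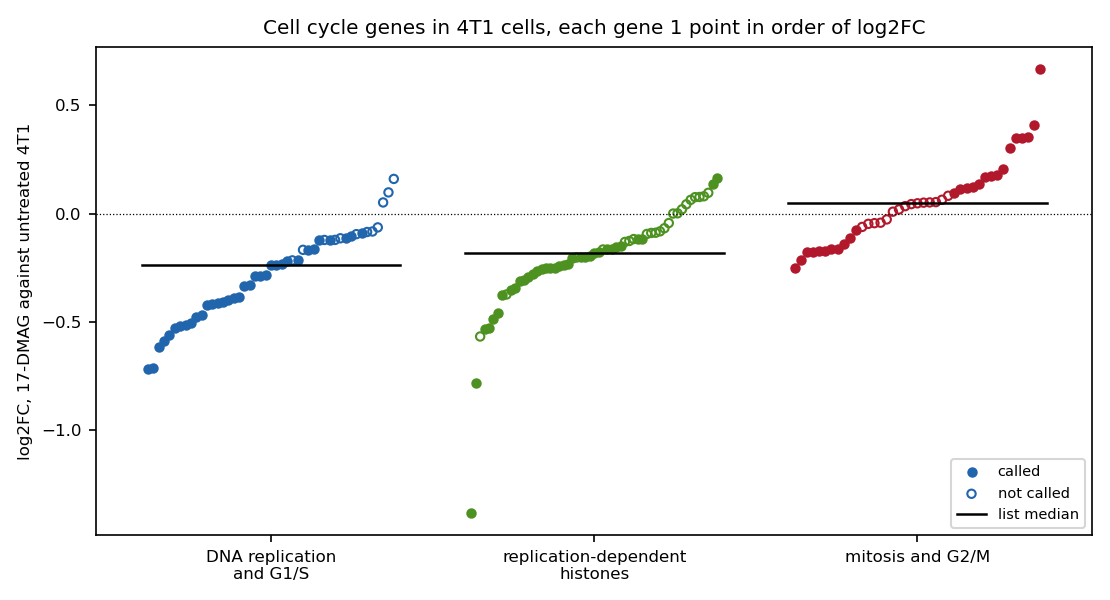
Fitted log2FC of 17-DMAG against untreated 4T1 cells for each tested gene of 3 lists, in order of log2FC within a list; filled points were called at an adjusted P-value under 0.05, open points were not, and the bars are list medians. The medians stand at −0.24 for DNA replication and G1/S, −0.18 for histones and 0.047 for mitosis and G2/M.

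Replication-dependent histone genes fell with the replication genes. Of 57 tested 33 fell and 2 rose (median −0.18), although many are near-identical copies whose reads the counting could split. Hist1h3g had 1895, 2016 and 1918 normalized counts untreated and 1196 and 1056 treated (log2FC −0.78 ± 0.093), and Hist2h4 and Hist4h4 fell by 0.53 each on the log2 scale. Of the 32 factors of DNA methylation and heterochromatin 14 fell and Morc2a rose (median −0.13). Uhrf1, which guides DNMT1 to replicating DNA and is also in the replication list, had 9637, 10280 and 10250 untreated and 7072 and 6882 treated (log2FC −0.53 ± 0.032). Setdb1, a histone H3 lysine methyltransferase of silenced repeats, fell from 3115, 3321 and 3226 to 2514 and 2608 (log2FC −0.33 ± 0.041), while Dnmt1 had 13190, 13530 and 13270 untreated and 12910 and 13020 treated and did not pass the test (adjusted P-value 0.28; −0.16 and called under total-count scaling). Among 40 deacetylases, acetyltransferases and demethylases 14 fell and 5 rose (median −0.088, rescaled 4 and 26), with Kdm3a at −0.74 ± 0.055, Hdac5 at −0.72 ± 0.070 and the scarce Hdac11 at 0.97 ± 0.18.

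Regulators of the cycle and of survival changed gene by gene. Of 31 genes of Myc, cyclins and their inhibitors 7 rose and 12 fell (median −0.068, rescaled 5 and 19). Myc rose from 9923, 10790 and 10270 normalized counts to 14450 and 14730 (log2FC 0.50 ± 0.039), while E2f2, an activator of replication genes, fell from 484, 522 and 508 to 221 and 203 (log2FC −1.24 ± 0.11). Cdkn1a, the inhibitor p21, had 405, 463 and 368 untreated and 170 and 238 treated (log2FC −1.03 ± 0.12). Mdm2 did not pass the test (log2FC 0.01 ± 0.052), and of 18 p53 targets in all 4 rose and 6 fell (median 0.022, or −0.094 under total-count scaling), with Sesn2, which is also an ATF4 target, at 1.66 ± 0.12. Of 18 genes of the BCL2 family 4 rose and 6 fell (median −0.035, rescaled 3 and 8). Bmf, a pro-apoptotic BH3-only gene, dropped from 64.2, 44.9 and 62.4 to 7.24 and 13.0 (log2FC −2.54 ± 0.34), Bcl2l11, which encodes BIM, from 2002, 1973 and 2033 to 1209 and 1236 (log2FC −0.71 ± 0.049), and Bbc3, which encodes PUMA, from 102, 111 and 98.5 to 71.6 and 70.2 (log2FC −0.55 ± 0.21), a call that was lost without untreated replicate 1 (−0.56), untreated replicate 2 (−0.494) or treated replicate 3 (−0.536) and in DESeq2 (−0.552). Mcl1, an anti-apoptotic member, fell by 0.21 on the log2 scale.

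Several output genes of signaling pathways fell. Of 22 feedback genes of the MAP kinases 13 fell and 4 rose, with a median log2FC of −0.30 and a range of −1.07 to 0.96. Spry2, an inhibitor of receptor signaling, had 1634, 1624 and 1692 normalized counts untreated and 798 and 779 treated (log2FC −1.07 ± 0.058). Dusp6, the phosphatase of ERK, had 3816, 3368 and 3825 untreated and 2181 and 2156 treated (log2FC −0.76 ± 0.050), and Dusp1 had 475, 477 and 589 untreated and 249 and 265 treated (log2FC −1.01 ± 0.11). In the AP-1 family 5 of 14 genes fell and 3 rose (median −0.055, rescaled 2 and 6). At least 2-fold changes were 4 falls and 1 rise, and log2FC in the list ran from −4.29 to 1.64. The falls were those of Fos, Fosb, Junb, Jun and Jund, of which Jun and Jund were named after their values were seen. Fosl1 and Fosl2, the FRA genes, did not pass the test (−0.08 and 0.06, with Fosl1 at −0.194 and called under total-count scaling). Junb, which overlaps Prdx2, had 3099, 3423 and 3367 untreated and 940 and 1016 treated. The other immediate-early genes divided, with 14 of 29 lower and 10 higher; their median of −0.21 became 0.051 without untreated replicate 3 and 0.045 without treated replicate 3. Egr3 had 201, 190 and 206 untreated and 55.5 and 49.7 treated (log2FC −1.91 ± 0.17), Klf2, a zinc finger factor, had 293, 296 and 337 untreated and 57.9 and 82.1 treated (log2FC −2.16 ± 0.18), and Ier2 had 1816, 1905 and 2031 untreated and 801 and 814 treated (log2FC −1.25 ± 0.061). Gadd45b and Nr4a2, named after their values were seen, rose with log2FC of 1.23 and 1.67.

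**Figure D4:**
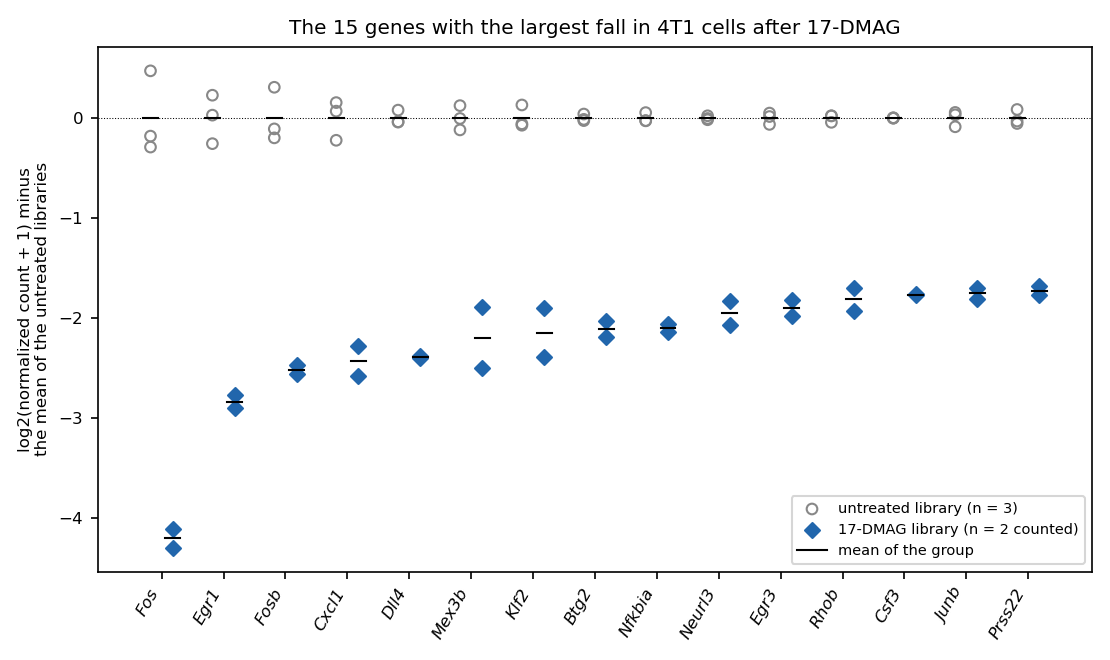
The 15 genes with the largest fitted fall in 4T1 cells among those with an adjusted P-value under 0.05, 100 or more normalized counts where higher, and groups that did not overlap; the vertical axis is log2(normalized count + 1) minus the mean of the untreated libraries. Open circles are the 3 untreated libraries, diamonds the 2 treated ones counted, bars the group means; treated means run from below −4 for Fos to −1.73 for Prss22.

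Promoter windows of falling genes were searched in the same way. The cyclic AMP response element TGACGTCA stood in 3.59% of all windows, in 3.31% of those of genes that fell at least 2-fold, in 2.04% of those that rose at least 2-fold, and in 8.82% of the windows of the AP-1 and immediate-early lists (3 of 34). The AP-1 letters TGANTCA stood in 6.69%, 14.9% and 12.9% of all, of falling and of rising windows. The CArG box of serum response factor was found in 1.57%, 1.65% and 4.08%, CACGTG in 11.5%, 8.26% and 8.84%, TATAAA in 8.95%, 14.0% and 13.6%, and CCAAT in 42.8%, 39.7% and 48.3%. Falling genes with the cyclic AMP response element are shown, with its letters in capitals, as counterparts of Zfand2a, which rose.
Btg2, chr1:134079268-134079367 (minus): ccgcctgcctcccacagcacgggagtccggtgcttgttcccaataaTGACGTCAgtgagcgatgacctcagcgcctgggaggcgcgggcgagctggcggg
Dusp1, chr17:26508562-26508661 (minus): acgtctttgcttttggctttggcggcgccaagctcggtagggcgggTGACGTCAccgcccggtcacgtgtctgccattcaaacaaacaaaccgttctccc
Dusp8, chr7:142095285-142095384 (minus): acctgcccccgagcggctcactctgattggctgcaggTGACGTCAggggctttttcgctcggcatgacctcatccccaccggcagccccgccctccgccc
Btg2, an antiproliferative gene that recruits the deadenylase, had 139, 140 and 145 normalized counts untreated and 33.8 and 30.2 treated (log2FC −2.13 ± 0.22), and Dusp8 had 394, 388 and 397 untreated and 174 and 225 treated (log2FC −0.99 ± 0.11).

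Ligands and receptors of growth factor pathways moved in both directions. Of 9 EGF receptor ligands 2 fell and 2 passed the test upward (median −0.073, or 0.11 without untreated replicate 1 and 0.057 without treated replicate 2, rescaled 1 and 2). Areg, amphiregulin, had 965, 992 and 1091 normalized counts untreated and 511 and 518 treated (log2FC −0.98 ± 0.074), and Nrg1, neuregulin, had 947, 925 and 904 untreated and 1456 and 1434 treated (log2FC 0.64 ± 0.063). Of 33 kinases that are HSP90 clients 11 fell and 5 rose (median −0.048, or −0.164 under total-count scaling, rescaled 2 and 26). Erbb3 had 305, 327 and 364 untreated and 130 and 166 treated (log2FC −1.18 ± 0.13), Fgfr2 had 5374, 5393 and 5288 untreated and 3048 and 2846 treated (log2FC −0.86 ± 0.039), and Erbb2 had 1919, 1799 and 1825 untreated and 1412 and 1518 treated (log2FC −0.34 ± 0.053). Egfr was near the limit of detection, with 8.78 to 16.03 normalized counts in untreated libraries and 11.9 and 15.7 in treated ones. These are transcript levels, and the levels of client proteins were not measured here.

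In the Notch pathway a ligand, a receptor and a target fell. Dll4, a Notch ligand, had 888, 886 and 963 normalized counts untreated and 175 and 172 treated (log2FC −2.39 ± 0.10, adjusted P-value 1.81e-22). Notch1 had 2180, 2098 and 2055 untreated and 936 and 875 treated (log2FC −1.22 ± 0.087). Hes1, the classic target, had 854, 849 and 916 untreated and 385 and 442 treated (log2FC −1.09 ± 0.078). In all 6 of 18 genes fell and 2 rose, which were Notch2 and Maml2, and the median was −0.16, or −0.14 without the 1 gene with no more than 3 counts over all libraries of a group (rescaled 1 and 8). Neurl3, an E3 ligase, fell from 2630, 2653 and 2703 to 748 and 635 (log2FC −1.93 ± 0.053).

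Genes of TGF-β and BMP signaling fell in larger number, 17 of 35 with 7 that rose (median −0.21, rescaled 2 and 22). Id1, a BMP target that blocks basic helix-loop-helix factors, had 762, 793 and 792 normalized counts untreated and 404 and 409 treated (log2FC −0.94 ± 0.070), and Id2 had 857, 731 and 856 untreated and 456 and 455 treated (log2FC −0.84 ± 0.090). Smad7, the inhibitory SMAD, had 1784, 1646 and 1740 untreated and 1007 and 1030 treated (log2FC −0.76 ± 0.058). The ligand Tgfb3 fell with log2FC of −0.87 ± 0.075. The receptor Tgfbr2, named after its values were seen, rose with 0.52. In the Wnt pathway 8 of 27 fell and 5 rose (median −0.044, rescaled 1 and 14), with Wnt10a from 725, 800 and 763 to 437 and 514 (log2FC −0.69 ± 0.083) and Tcf7l2 from 648, 562 and 679 to 383 and 419 (log2FC −0.66 ± 0.089).

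Targets of YAP and TEAD, the factors of the Hippo pathway, went the other way. Of 20 tested 13 rose and 1, Arhgef17, fell (median 0.35, rescaled 11 and 6). Cyr61, a secreted matrix protein, had 4467, 4957 and 4789 normalized counts untreated and 7843 and 7554 treated (log2FC 0.70 ± 0.044), and Ctgf had 3080, 3470 and 3240 untreated and 4738 and 4122 treated (log2FC 0.44 ± 0.053). Amotl2 and Lats2, feedback inhibitors of YAP, rose from 2594, 2593 and 2704 to 5035 and 4925 (log2FC 0.92 ± 0.048) and from 2378, 2344 and 2432 to 4614 and 4329 (log2FC 0.91 ± 0.045). Groups did not overlap in these 4 genes, which for Amotl2 and Lats2 was a condition of their naming. The same held for 4855 called genes in all, so it does not set these 4 apart. Gadd45a, a stress gene in this list, rose with log2FC of 1.44 ± 0.13. Genes of actin and its factors SRF and MRTF moved less, with 10 of 25 higher and 4 lower (median 0.019, or −0.097 under total-count scaling, rescaled 3 and 12), among them Zyx, zyxin, from 4019, 4189 and 4241 to 5804 and 5633 (log2FC 0.46 ± 0.042).

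Of the receptors that need HSP90 to bind ligand, the aryl hydrocarbon receptor had targets that fell by unequal amounts. Cyp1b1, a cytochrome P450, had 3130, 2749 and 2907 normalized counts untreated and 960 and 831 treated (log2FC −1.70 ± 0.059), and Tiparp, a repressor of the receptor, had 5026, 4946 and 5034 untreated and 2791 and 2648 treated (log2FC −0.88 ± 0.041). Of 5 targets tested 3 fell, only Cyp1b1 by at least 2-fold, and Aldh3a1 by little (log2FC −0.26 ± 0.074). Nqo1 did not pass the test, and Cyp1a1 had no more than 3 counts over all libraries of a group (list median −0.88, or −0.57 without Cyp1a1). Targets of the glucocorticoid receptor were mixed, with 4 of 12 higher and 6 lower (median −0.087). Tsc22d3, known as GILZ, rose from 288, 216 and 216 to 410 and 372 (log2FC 0.71 ± 0.13), and Bcl6 fell from 727, 787 and 753 to 363 and 400 (log2FC −0.99 ± 0.074). Hypoxia-inducible factor targets were mixed too, 5 of 20 higher and 7 lower (median 0.011, or −0.11 under total-count scaling). Vegfa rose from 779, 731 and 788 to 1301 and 1299 (log2FC 0.76 ± 0.069), Egln3, an oxygen-sensing hydroxylase, fell from 2319, 2224 and 2337 to 1097 and 1076 (log2FC −1.08 ± 0.050), and Slc2a1, the glucose carrier, overlapped between the groups (log2FC 0.02 ± 0.047).

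Genes of cytokine signaling moved in both directions. Of 32 receptors, kinases and feedback genes of the JAK-STAT pathway 14 fell and 4 rose (median −0.19, rescaled 1 and 20). At least 2-fold changes were 1 rise and 0 falls, and log2FC in the list ran from −0.98 to 1.86. Among the falls, Il4ra went from 937, 948 and 918 normalized counts to 502 and 576 (log2FC −0.80 ± 0.079). Pias3 went from 495, 501 and 441 to 239 and 246 (log2FC −0.98 ± 0.11) and Socs3 from 611, 531 and 531 to 377 and 405 (log2FC −0.52 ± 0.087). Of 28 chemokines and cytokines 10 fell and 4 rose, with a median of −0.82, or −0.21 without the 6 genes that have at most 3 counts across a group. Csf3, the granulocyte factor G-CSF, had 561, 563 and 562 untreated and 165 and 164 treated (log2FC −1.77 ± 0.075), and Il11 had 91.2, 113 and 104 untreated and 253 and 252 treated (log2FC 1.29 ± 0.16). Il6 had at most 2.14 normalized counts in a library. Of 37 interferon-stimulated genes 18 rose and 2, Ddx58 and Parp9, fell (median 0.31, or 0.19 under total-count scaling). That median was 0.215 without treated replicate 3 and 0.423 without untreated replicate 2. Rsad2 went from 61.1, 59.8 and 66.3 to 287 and 371 (log2FC 2.38 ± 0.15) and Oasl1 from 249, 277 and 320 to 625 and 726 (log2FC 1.25 ± 0.097). Of 20 genes of MHC class I presentation 4 rose and 1 fell (median −0.010, rescaled 1 and 9), with H2-D1 at 0.22 ± 0.038.

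Several factors that shorten the life of mRNA fell. Of 31 mRNA decay factors 14 fell and 4 rose (median −0.050, rescaled 2 and 16), and the falls included the AU-rich element binding proteins. Zfp36l1 had 1541, 1606 and 1504 normalized counts untreated and 730 and 658 treated (log2FC −1.15 ± 0.065), Zfp36 had 458, 426 and 469 untreated and 205 and 261 treated (log2FC −0.97 ± 0.12), and Zc3h12a, the endonuclease regnase-1, had 240, 262 and 244 untreated and 97.4 and 132 treated (log2FC −1.14 ± 0.12). Tob1 fell by 0.32 on the log2 scale. Among 26 genes of transcription elongation and the BET family 7 fell and 4 rose (median −0.049, rescaled 0 and 16). Hexim1, which holds the kinase P-TEFb inactive, had 1638, 1430 and 1529 untreated and 785 and 715 treated (log2FC −1.03 ± 0.065), and Polr2a, the largest subunit of RNA polymerase II, had 15180, 15540 and 15420 untreated and 10320 and 9521 treated (log2FC −0.63 ± 0.031). Of 28 SR proteins and CLK kinases 5 rose and 9 fell (median −0.048, rescaled 2 and 19), with Rsrp1 from 1696, 1668 and 1625 to 3250 and 3339 (log2FC 0.99 ± 0.045). Of 20 hnRNP genes 6 fell and 1 rose (median −0.023, rescaled 0 and 13), Hnrnph1 by the most (log2FC −0.35 ± 0.030).

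Metabolic genes outside the ATF4 program changed by small amounts. Of 20 genes of glycolysis 7 fell and Gapdh rose, with a log2FC of 0.09 that became −0.0265 under total-count scaling and was not called without untreated replicate 1 (0.062), untreated replicate 3 (0.092) or treated replicate 3 (0.069); the list median was −0.064 (rescaled 0 and 13). Hk1, hexokinase, fell from 3067, 3218 and 3043 normalized counts to 2208 and 2284 (log2FC −0.47 ± 0.042). Of 27 genes of cholesterol synthesis and uptake 6 rose and 10 fell (median −0.071, rescaled 4 and 13). The enzymes Dhcr7 and Mvd fell with −0.45 ± 0.055 and −0.42 ± 0.084. Of 21 genes of fatty acid synthesis 7 rose and 9 fell (median −0.069, rescaled 3 and 12), with Fads3 at 0.68 ± 0.049 and Fasn at 0.16 ± 0.028 (0.041 and not called under total-count scaling). Of 30 ABC transporters 7 rose and 6 fell (median 0.022, or −0.075 under total-count scaling and −0.038 without untreated replicate 3, rescaled 4 and 9), with Abcc5 at 0.60 ± 0.051. Clock genes were divided, 5 of 16 higher and 6 lower (median −0.11, or 0.014 without untreated replicate 1), with Ciart, a repressor of CLOCK, from 109, 105 and 99.5 to 326 and 324 (log2FC 1.64 ± 0.13) and Nr1d1, which overlaps Thra, from 400, 416 and 446 to 211 and 173 (log2FC −1.12 ± 0.11).

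Genes of adhesion and structure held no common direction. Of 19 claudins and tight junction genes 7 fell and 2 rose (median −0.25), with Cldn4 from 922, 945 and 981 normalized counts to 374 and 348 (log2FC −1.39 ± 0.11) and Cldn12 from 2813, 2858 and 3011 to 4979 and 5128 (log2FC 0.80 ± 0.043). Of 47 matrix proteases and inhibitors 15 fell and 5 rose (median −0.095), with Mmp10 at −0.74 ± 0.073. Of 20 integrin subunits 8 fell and 4 rose (median 0.091, or −0.024 under total-count scaling, rescaled 2 and 8), of 37 collagens and laminins 5 fell and 6 rose (median −0.10, rescaled 3 and 10), of 14 keratins 3 fell and 3 rose (median −0.031, or 0.0735 without untreated replicate 1 and −0.0945 in a fit of 18 separate libraries, rescaled 2 and 4), and of 15 tubulins 4 fell and 3 rose (median −0.039), with Tubb2a at 1.00 ± 0.065. Of 19 genes of the epithelial-mesenchymal transition 4 fell and 2 rose (median −0.034, rescaled 1 and 8), and Vim and Cdh1, which mark its 2 ends, both fell by little (log2FC −0.29 ± 0.025 and −0.11 ± 0.031), the latter not called without treated replicate 3 (−0.096).

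Gene classes taken from the GENCODE vM21 annotation differed in their shares. Of 492 genes with a single exon 29 rose (5.89%) and 81 fell (16.5%), against 19.1% and 18.1% of genes with more exons; under total-count scaling the shares were 3.86% and 25.2% against 9.09% and 32.5%. Among the 240 that code for protein 20 rose (8.33%) and 69 fell (28.7%), and outside the histone list 18 of 186 rose (9.68%) and 39 fell (21.0%), or 12 and 57 under total-count scaling. Over 5 bins of equal number by the span of the gene, 14.2 to 20.9% rose and 13.8 to 22.2% fell (6.62 to 9.86% and 24.8 to 37.4% under total-count scaling), and the lowest shares were in the bin of genes under 7.17 kb. Of 298 numbered zinc finger genes 69 rose and 29 fell (median 0.082, or −0.034 under total-count scaling, rescaled 30 and 54), with Zfp503 from 1735, 1816 and 1700 normalized counts to 786 and 669 (log2FC −1.26 ± 0.063). Of 97 snoRNA and scaRNA genes 2 rose and 6 fell (median −0.051, rescaled 1 and 10), and of their 16 host genes 4 rose and 1 fell (median 0.065, or −0.051 under total-count scaling, rescaled 3 and 4). Of 88 microRNA genes tested 2 rose and 4 fell (rescaled 1 and 8), and of 911 RIKEN and numbered Gm transcripts 81 rose and 81 fell (rescaled 49 and 135). Of 145 lincRNAs 17 rose and 12 fell (rescaled 11 and 17). Low counts leave little power in these classes, and the strand setting of the counting is not given in the sources used here, so opposite-strand neighbours may share reads.

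Several lists that moved in 4T1 had medians nearer 0 in the selected populations. The difference of response was tested gene by gene as an interaction; both differences use the same 4T1 libraries. It was called for 2464 genes in 4T1R1 (18.2%), 1237 above and 1227 below 4T1, and for 2401 in 4T1R2 (17.8%), 1299 above and 1102 below. Under total-count scaling these counts were 3536 and 419 in 4T1R1 and 2091 and 632 in 4T1R2, and without treated 4T1 replicate 3 the first pair was 798 and 787 and the count below 4T1 in 4T1R2 was 668. The list values that follow are under TMM scaling alone, and their dependence on the scaling was not tested. Lists were picked in part because they moved in 4T1. That change enters each difference, so medians nearer 0 follow in part from the choice, as do the counts of genes that differed. The ATF4 list had a median log2FC of 1.10 in 4T1 against 0.22 for 4T1R1 and 0.15 for 4T1R2, and 25 of 28 genes had a lower response in each selected population than in 4T1. For the tRNA synthetases the medians were 0.60, 0.14 and 0.085, with 14 of 20 lower in each. For the proteasome they were 0.27, 0.032 and 0.046, with 28 and 25 of 34 lower. The NRF2 list went from 0.23 to −0.023 and −0.012, with 18 and 16 of 26 lower. The G1/S list had medians of −0.24, −0.11 and −0.066, and 22 of 47 genes in 4T1R1 and 26 in 4T1R2 had a response above that of 4T1. MAP kinase feedback genes had medians of −0.30, −0.13 and −0.020, with 12 and 13 of 22 above 4T1. The histone list did not shrink in 4T1R1, with medians of −0.184, −0.188 and −0.078. Of its 57 genes 5 were below and 5 above 4T1 in 4T1R1, and 0 and 8 in 4T1R2. Ribosome biogenesis had the fewest genes that differed among the lists named here, with 3 and 2 of 51 lower and 1 and 2 higher. Its medians were 0.11, 0.080 and 0.086. Trib3, taken singly, had a log2FC of 0.53 ± 0.068 in 4T1R1 and of 0.21 ± 0.075 in 4T1R2, and Dll4 of −0.67 ± 0.091 and −0.13 ± 0.079. Library names of 4T1R1 come from another number series than those of 4T1 and 4T1R2, what that series marks is not given in the labels, and for 4T1R1 the population and the series cannot be told apart.

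**Figure D5:**
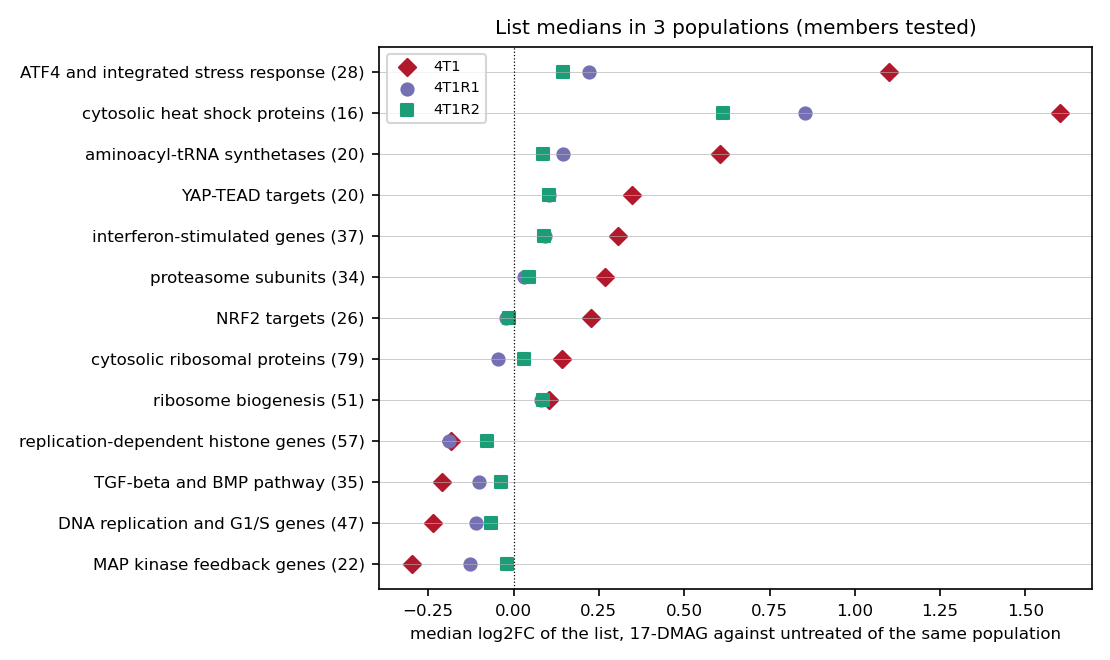
Median log2FC of 17-DMAG against untreated cells of the same population for 13 gene lists, with the number of members tested after each name; diamonds are 4T1, circles 4T1R1 and squares 4T1R2. The 4T1 median of the ATF4 list is 1.10, against 0.22 and 0.15, while the 3 medians of ribosome biogenesis lie between 0.080 and 0.11.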

How the data were processed

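Total RNA of 6 4T1 libraries was sequenced as stranded libraries after ribosomal RNA depletion. The authors deposited whole-number read counts per gene symbol for all 18 libraries, without normalization. The submitters' processing notes name bcl2fastq 2.20, STAR, Subread 1.6.2 and featureCounts on mm10/GRCm38, while the strand setting of counting is not given in the sources used here. Even numbers made up 68.5 to 70.8% of the counts between 1 and 12, so that both mates of a read pair were probably counted, each as 1 read. Read numbers limit precision for scarce genes, and duplicates could not be removed.

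Counts were fitted using edgeR 4.0.16 (R 4.3.3). Replicates 1 and 2 of treated 4T1 were averaged, genes were kept by filterByExpr (13507 of 24421), libraries were scaled by TMM, all 6 groups were fitted together, and quasi-likelihood tests were adjusted by the Benjamini-Hochberg method over all genes tested. The gene lists and the choice of samples were made with earlier results of these data known. Named genes were the 15 largest rises and 15 largest falls with an adjusted P-value under 0.05, 100 or more normalized counts where higher and no overlap, up to 3 such genes per list, and the first 2 genes written in each list; others are marked as named after their values were seen, and a few genes of the rule are not reported here. Same-numbered replicates did not deviate together (r between −0.101 and −0.0021). The code was tested on simulated data. Alternatives were RLE and total-count scaling, other filters, counts without Rn45s, DESeq2 1.42.0, fits of the groups compared alone, of 18 separate libraries and with a replicate block, and each library left out. Figures used matplotlib 3.10.9 in Python 3.11.15.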

Additional observations from a re-analysis of the deposited data

Results flagged for a closer look

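The response to 17-DMAG differed between 4T1 and the selected populations by the interaction test in edgeR for many genes. In 4T1R1 the response was above that of 4T1 for 1237 genes and below it for 1227, and in 4T1R2 for 1299 and 1102.

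For the 5 largest rises in 4T1 the difference of log2 response was negative in both populations. It was −1.88 in 4T1R1 and −2.81 in 4T1R2 for Hspa1b, −0.965 and −1.54 for Hsph1, −2.18 and −2.5 for Trib3, −2.1 and −2.04 for Chac1, and −3.26 and −3.23 for Tex14, a scarce transcript whose locus overlaps 4 U3 small RNA genes on the same strand. For the 5 largest falls it was positive. It was 4.05 in 4T1R1 and 3.42 in 4T1R2 for Fos, 2.8 and 2.85 for Egr1, 2.59 and 2.16 for Fosb, 1.54 and 2.37 for Cxcl1, and 1.73 and 2.27 for Dll4. These 10 genes were picked for the size of their change in 4T1, which enters each difference, so the signs follow in part from the choice. Both differences for a gene use the same 4T1 libraries. No group here holds 4 or more samples, so single libraries were not screened for outlying values.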

How the results depend on the processing

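Scaling by total counts alone gave 1193 genes higher and 4322 lower in 4T1, 3536 with a response above 4T1 and 419 below in 4T1R1, and 2091 above and 632 below in 4T1R2. Its list medians changed sign in 18 lists, −0.105 for hypoxia-inducible factor targets, −0.0938 for p53 targets, −0.0992 for solute carriers, −0.0685 for mitosis and G2/M, −0.0606 for the respiratory chain, −0.0263 for the mitochondrial ribosome, −0.0504 for the V-ATPase, −0.0384 for autophagy, −0.00343 for ubiquitin, −0.0241 for metal response, −0.0375 for co-chaperones, −0.011 for ribosome biogenesis, −0.0511 for translation factors, −0.0339 for zinc finger genes, −0.051 for snoRNA hosts, −0.0965 for actin genes, −0.0244 for integrins and −0.0746 for ABC transporters. Gapdh became −0.0265. A minimum of 10 counts in every library left 121 genes at least 2-fold higher, since scarce genes were no longer tested. With each library left out in turn, 1755 to 2512 genes were higher and 1762 to 2475 lower, 167 to 207 at least 2-fold higher and 147 to 195 at least 2-fold lower, and the responses above and below 4T1 counted 798 to 1268 and 787 to 1254 in 4T1R1 and 897 to 1322 and 668 to 1122 in 4T1R2. The lowest of these came without treated replicate 3, which leaves 1 treated sample whose spread is taken from the other groups. Medians changed sign without a library for the other immediate-early genes (−0.219 to 0.0513, also 0.0449), EGF receptor ligands (−0.166 to 0.112, also 0.0569), clock genes (−0.158 to 0.0144), ABC transporters (−0.038 to 0.0464), keratins (0.0735) and solute carriers (−0.0108, and −0.00832 with at least 10 counts in every library), and by amounts within the spread between replicates for hypoxia-inducible factor targets (−0.0025), p53 targets (−0.00492), tubulins (0.00102) and solute carriers (−0.000782, and −0.00492 with the 4T1 groups alone), and the cause was not tested. The replicate block, in a fit of 18 separate libraries, gave 2760 higher and 2782 lower, 209 and 201 at least 2-fold, and 1425 and 1370 in 4T1R1 and 1475 and 1242 in 4T1R2. Without Rn45s 2469 were higher and 2436 lower. DESeq2 gave 2253 higher and 2339 lower. Same-numbered libraries share only a number, so the block is no pairing. Of 2868 values of named genes under the alternatives, differences of response included, 2852 kept direction and call. Scarce genes are limited by counts, and treated cells by n = 2.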
